A study of Homo sapiens with 45 samples.

Results

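The 10 genes described here encode the cyclin E and cyclin A proteins (CCNE1, CCNE2, CCNA1 and CCNA2), the kinase CDK2 that they activate, the 3 CDC25 phosphatases (CDC25A, CDC25B and CDC25C), and the F-box proteins SKP2 and FBXW7. They were taken by symbol from the 29159 genes counted in each line, and all 10 were found. The rule that picks them uses names and no measured value, but the set was chosen with earlier results of these data known. The question is whether this set, a possible way around the block of CDK4 and CDK6, changed in cells given palbociclib (PB), an inhibitor of those kinases.

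RNA-seq was carried out on 3 established human neuroblastoma lines. SK-N-BE(2)C and IMR-32 are MYCN-amplified, and SH-SY5Y has mutant ALK; each is a single line and so a single tumor genotype. In each line a group labelled control was compared with cells given 1 μM PB for 24 h and with cells given PB for longer, meaning 5 days for IMR-32 and SH-SY5Y but 7 for SK-N-BE(2)C. Where 3 values are given without names, SK-N-BE(2)C comes first, IMR-32 second and SH-SY5Y last. Every one of the 9 groups had 5 replicates, described as different passages plated in independent experiments, so there were 45 libraries. The 24 h time is also when controls were taken, so at the longer time PB and time in culture cannot be told apart, and neither can line and duration where SK-N-BE(2)C is set against the others.

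In the textbook order of events, CDK4 and CDK6 with D-type cyclins begin the phosphorylation of RB, and the E2F factors that RB held back then switch on the genes of cyclin E, cyclin A, CDC25A and many others. Cyclin E with CDK2 completes RB phosphorylation and starts DNA replication, and cyclin A with CDK2 acts through S phase. CDC25 phosphatases remove the inhibitory phosphates from these kinases, SKP2 directs the CDK inhibitor p27 to degradation, and FBXW7 does the same for cyclin E. High cyclin E is a known route to resistance to CDK4/6 inhibitors in other tumors.

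Promoter sequences are shown for a pair of genes that fell with PB in all lines (CCNA2 and CDC25A) and for the cyclin E gene that was near its control level at the longer time (CCNE1). RefSeq entries on GRCh38.p14 were matched for 8 of the 10 genes. Each sequence below is the 150 bases before the start of transcription, 5′ to 3′ on the strand of the gene. Capitals mark matches, on either strand, to E2F-like motifs (TTTGGCGC, TTTCCCGC, TTTCGCGC or TTTGCCGC), to CHR-like motifs (TTTGAA or TTTAAA) or to the CCAAT box (CCAAT); no match overlapped another. They lie at chr4:121823884-121824033 (minus strand), chr3:48188418-48188567 (minus strand) and chr19:29811841-29811990 (plus strand) in the order given.
CCNA2: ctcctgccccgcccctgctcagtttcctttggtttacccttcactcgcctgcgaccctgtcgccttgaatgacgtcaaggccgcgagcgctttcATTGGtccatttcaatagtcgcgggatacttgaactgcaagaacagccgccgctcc
CDC25A: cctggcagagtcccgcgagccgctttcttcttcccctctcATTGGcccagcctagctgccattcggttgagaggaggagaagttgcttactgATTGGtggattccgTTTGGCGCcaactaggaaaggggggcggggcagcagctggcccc
CCNE1: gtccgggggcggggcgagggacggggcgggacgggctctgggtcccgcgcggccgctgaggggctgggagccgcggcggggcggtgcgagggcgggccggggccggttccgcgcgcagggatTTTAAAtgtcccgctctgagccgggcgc

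CDC25A held 1 E2F-like match, from -44 to -37 relative to the start, and a pair of CCAAT matches on the reverse strand. CCNA2 held 1 CCAAT match, and CCNE1 held 1 TTTAAA match from -28 to -23. Over the 250 bases before the start, 2.79% of 35116 promoters held one of the E2F-like motifs, 21.9% a CHR-like motif and 32% a CCAAT box. A match is a description of letters and not a site of binding. Only the letters listed were searched, so a sequence without a match may still hold another form of the motif.

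Libraries held 13459219 to 25441812 counts. In IMR-32 replicate 5 stood apart from replicates 1 to 4 among the controls (56.8 to 85.9 against 4.16 to 12.4, chi-square per degree of freedom of the counts of a pair of libraries), at 24 h (55.3 to 86.9 against 3.93 to 44.7) and at 5 days (22.3 to 48.6 against 4.61 to 17.7). Replicate 2 at 24 h also differed from replicates 1, 3 and 4, and held the upper values of that second range. In SK-N-BE(2)C replicates 3 to 5 lay closer to each other than pairs that held replicate 1 or 2 did, among the controls (2.43 to 3.18 against 11.2 to 19.2) and at 24 h (1.69 to 2.42 against 7.05 to 23.6), while at 7 days the ranges met (5.60 to 29.5 against 19.3 to 77.8). Values without IMR-32 replicate 5 or SK-N-BE(2)C replicates 1 and 2 are given where they move a member's call within a line. All 8 adrenergic markers were found in each line and 7 or 8 of them exceeded 1 CPM (reads of a gene scaled to a common library total), TH in SH-SY5Y being the exception. Of 8 mesenchymal markers 7 were found and 3 to 7 exceeded 1 CPM, and of 5 fibroblast markers 1 (COL1A1) did so in IMR-32 and 3 to 5 did so in the other lines, with a summed level of 24.5 to 661 CPM over all libraries. COL1A2 was at 0 in the SK-N-BE(2)C controls. At the longer time 1 adrenergic marker of 8 was below control in each line and 0, 1 and 1 were above it. At 24 h 1, 4 and 2 were above it and 0 below. Of all genes, 24.5%, 16.6% and 18.6% were called above control at the longer time, and 22.3%, 15.5% and 17.3% below it. At 24 h these shares were 10.9%, 7.87% and 10.5% above and 10.6%, 10.5% and 11.0% below, also for the markers that follow. Of the mesenchymal markers tested 1 of 6, 1 of 5 and 3 of 7 were below control at 24 h, which became 4, 4 and 5 at the longer time, against 22.3%, 15.5% and 17.3% of all genes at that time, and 1 was above it in SK-N-BE(2)C at both times. Of the fibroblast markers 3 of 4 were above control in SK-N-BE(2)C at 7 days, against 24.5% of all genes, and 1 (COL1A1) was below it, while at 24 h 0 were above and 2 below. Their sum there was 237 to 451 CPM at 7 days and 158 to 206 in controls. At 5 days 1 fibroblast marker was above control and 1 below it in each of the other lines, of 2 tested in IMR-32 and 5 in SH-SY5Y. Their part in the results for the members was not tested.

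At 24 h most genes of this set fell, and none rose past the test. A gene is said to have risen or fallen where edgeR's quasi-likelihood test gave a Benjamini-Hochberg adjusted p under 0.05 over all genes tested and an absolute log2 fold change over 0.5. In SK-N-BE(2)C 6 of the 9 members tested fell, against 10.6% of all genes tested. IMR-32 had 8 of 10 lower, against 10.5%, and SH-SY5Y had 9 of 10 lower, against 11.0%. The members that rose numbered 0 in each line by edgeR and by DESeq2, where 10.9%, 7.87% and 10.5% of all genes rose, and FBXW7 was the 1 member higher at an unadjusted p under 0.05, in SK-N-BE(2)C and SH-SY5Y. In all 3 lines 6 members fell, namely CCNE2, CCNA2, CDK2, CDC25A, CDC25C and SKP2, as did 5.81% of the 12556 genes tested in every line. The median log2 fold change of the members tested was -1.69, -1.71 and -1.51, against 0.02, 0.06 and 0.04 for all genes. Control and 24 h libraries did not overlap in 8 of 9, 8 of 10 and 9 of 10 members, against 39.3%, 23.1% and 38.5% of all genes. In bulk RNA, fewer cells in cycle and less RNA per cell cannot be told apart.

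At the longer time 7 of 9, 6 of 10 and 8 of 10 members were below control, against 22.3%, 15.5% and 17.3% of all genes. The members above control numbered 0 in each line by edgeR and by DESeq2, and 0 at an unadjusted p under 0.05, against 24.5%, 16.6% and 18.6% of all genes called higher. Libraries of the longer time did not overlap the controls in 7 of 9, 7 of 10 and 8 of 10 members, against 53.8%, 39.1% and 47.0% of all genes. The same 6 genes were lower in all 3 lines, as were 6.50% of the genes tested in every line. From 24 h to the longer time, in IMR-32 7 members rose (10.8% of all genes) and SKP2 alone fell (8.86%). SH-SY5Y had 4 that rose (10.5%) and 0 that fell (6.23%), and SK-N-BE(2)C had 0 that rose (17.5%) and 2 that fell (14.4%). Whether this step differed between lines was not tested. By DESeq2 likewise 0 members rose in SK-N-BE(2)C and 0 fell in SH-SY5Y, and so it was at an unadjusted p under 0.05. The treated times did not overlap in 1 of 9, 8 of 10 and 2 of 10 members, against 40.4%, 23.5% and 24.7% of all genes. These comparisons share libraries and are not independent of each other.

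Markers of cycling cells moved with these values. The summed level of MKI67, TOP2A, PCNA and MCM2 in SK-N-BE(2)C was 2199 to 2394 CPM in controls, 303 to 456 at 24 h and 291 to 709 at 7 days. In IMR-32 it was 1734 to 2635, 285 to 411 and 749 to 1196. In SH-SY5Y it was 1741 to 2153, 167 to 257 and 162 to 599, so the 5-day libraries of that line spread more widely than either other group. The part of the share of cycling cells in the results was not tested.

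CCNE1, the cyclin E1 gene (GRCh37, chr19:30302898-30315219, plus strand), was the cyclin closest to its control level at the longer time in each line. In SK-N-BE(2)C the controls held 13.4, 13.9, 12.4, 13.7 and 12.5 CPM, the 24 h libraries 15.8, 14.5, 10.6, 8.87 and 9.60, and the 7-day libraries 18.6, 9.07, 8.41, 15.1 and 11.9. The 3 groups overlapped, and replicates 1 and 2 at 24 h lay above every control while replicates 3 to 5 lay below. The log2 fold change was -0.18 ± 0.21 (SE, n = 5 against 5) at 24 h and -0.11 ± 0.21 at 7 days (edgeR adjusted p = 0.51 and 0.65). Without replicates 1 and 2 it was -0.46 at 24 h, with an edgeR adjusted p of 0.046, which is still short of the fold change limit.

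In IMR-32 CCNE1 fell and came back. The controls held 10.6, 10.2, 10.1, 10.2 and 14.9 CPM, the 24 h libraries 3.37, 4.76, 4.51, 3.31 and 5.89, and the 5-day libraries 9.95, 9.48, 10.9, 10.7 and 12.8. Every 24 h library lay below every other library of the line, while the 5-day and control libraries overlapped. The change was -1.31 ± 0.17 at 24 h, 1.25 ± 0.17 from 24 h to 5 days and -0.07 ± 0.17 from control to 5 days (edgeR adjusted p = 2.9e-05, 7.7e-05 and 0.75).

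Among the controls SH-SY5Y held the most CCNE1, while at both treated times its libraries overlapped those of SK-N-BE(2)C. Levels were not tested between lines. The SH-SY5Y controls held 23.2, 22.7, 19.3, 19.99 and 21.4 CPM, its 24 h libraries 15.1, 11.3, 11.9, 13 and 10.8, and its 5-day libraries 12.8, 14.7, 20.3, 20.8 and 26.7. The 24 h libraries lay below all controls, and the 5-day libraries reached from among the 24 h values to above the highest control. The fall at 24 h was -0.79 ± 0.16, the rise after it 0.56 ± 0.16, and the difference from control at 5 days -0.23 ± 0.16 (edgeR adjusted p = 5.1e-04, 0.0090 and 0.21). Without 5-day replicate 5 the rise was 0.43, under the fold change limit, and over each library left out in turn the adjusted p of the 5-day difference ran from 0.017 to 0.48.

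CCNE2 encodes cyclin E2, whose protein also binds CDK2, and it fell far more than CCNE1. In SK-N-BE(2)C the controls held 29.6, 40.5, 32.3, 35.6 and 33.7 CPM, the 24 h libraries 5.54, 8.18, 2.41, 1.73 and 2.09, and the 7-day libraries 6.0, 1.08, 1.01, 4.99 and 3.47. All treated libraries lay far below all controls, and the treated times overlapped. The change was -3.10 ± 0.47 at 24 h and -3.45 ± 0.48 at 7 days (edgeR adjusted p = 7.7e-05 and 1.4e-05).

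In IMR-32 the CCNE2 controls held 23.7, 25.5, 28.0, 25.4 and 45.1 CPM, the 24 h libraries 0.831, 0.651, 0.545, 0.597 and 1.88, and the 5-day libraries 8.14, 8.07, 11.2, 9.81 and 15.6. The 24 h values rest on 11 to 30 counts a library, and the 3 groups did not overlap. Its mean at 24 h was 3.05% of control, and at 5 days 35.7%. The change of -5.02 ± 0.33 at 24 h was the deepest of any member in any line, and it was followed by a rise of 3.52 ± 0.32 (edgeR adjusted p = 1.2e-08 and 1.5e-06).

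In SH-SY5Y the CCNE2 controls held 20.6, 22, 19.0, 20.4 and 22.5 CPM, the 24 h libraries 1.31, 0.932, 0.890, 0.911 and 0.419, and the 5-day libraries 0.616, 1.67, 4.30, 4.59 and 6.76. The 5-day libraries ran from within the 24 h range to above it, and all stayed below the controls. The change was -4.57 ± 0.44 at 24 h, and CCNE2 then rose by 1.96 ± 0.48 (edgeR adjusted p = 6.9e-07 and 0.0047). Of the 4397 exonic bases annotated for CCNE2, 1633 are overlapped by exons of genes on the other strand, INTS8 among them, and the sources used here do not state whether counting used strand.

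The balance between the cyclin E genes therefore moved toward CCNE1. Per kilobase of transcript (CPM per kb, on the MANE Select transcript), CCNE1 made up 34.6% ± 2.3 (SD, n = 5) of the cyclin E RNA in SK-N-BE(2)C controls, 82.0% ± 6.9 at 24 h and 85.6% ± 5.9 at 7 days. IMR-32 had 34.6% ± 2.6, 87.4% ± 4.5 and 58.8% ± 3.9, and SH-SY5Y had 58.2% ± 1.5, 95.1% ± 1.3 and 89.2% ± 5.1. The summed level of both genes fell all the same, from 19.6 ± 1.7 to 7.57 ± 2.5 and 7.70 ± 3.0 CPM per kb in SK-N-BE(2)C. It went from 16.8 ± 4.3 to 2.57 ± 0.71 and 9.46 ± 1.8 in IMR-32, and SH-SY5Y went from 18.7 ± 1.2 to 6.69 ± 0.98 and 11.1 ± 3.7.

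The ratio within a library was tested on the log2 scale, with 0.5 CPM added to each gene, by an exact two-sided permutation test, for which 5 against 5 allows no p under 0.00794. The mean log2 ratio of CCNE1 to CCNE2 rose at 24 h by 2.98, 3.18 and 3.21, and at the longer time it was above control by 3.32, 1.40 and 2.47. All 6 differences had the smallest p the design allows, 0.0102 after adjustment over the 18 ratio tests by the exact permutation test. That test leaves replicate numbers out. Paired by number, 5 pairs allow no sign-flip p under 0.0625, so a paired test could call no ratio difference. Between 24 h and the longer time the ratio came down by 1.78 in IMR-32 (exact permutation, adjusted p = 0.0102). There was no called change in SH-SY5Y, where the ratio differed by -0.74, or in SK-N-BE(2)C, where it differed by 0.34 (exact permutation, adjusted p = 0.089 and 0.35).

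**Figure D1:**
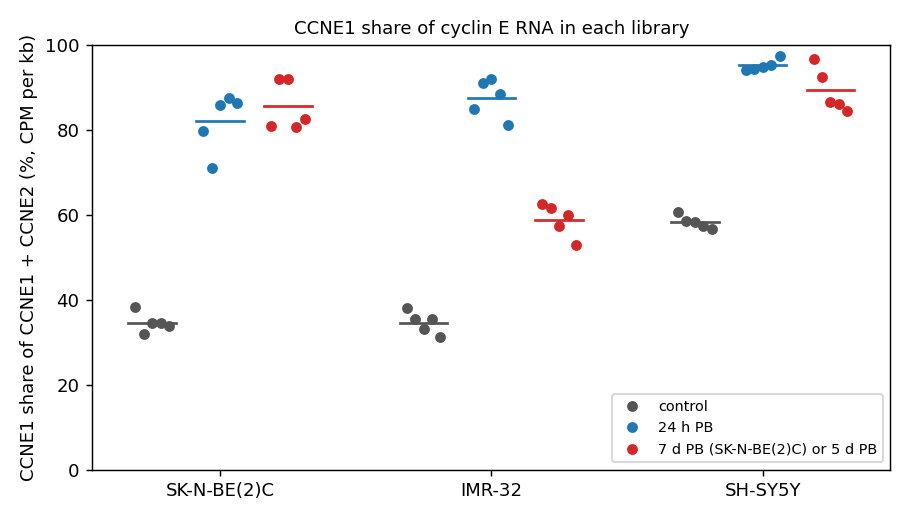
CCNE1 as a percentage of CCNE1 plus CCNE2, in CPM per kb of transcript, with 1 point for each library and a bar at the mean of 5 libraries. Treated libraries lay above the controls of their line throughout, and the 5-day IMR-32 libraries, with a mean of 58.8%, lay between the controls (34.6%) and the 24 h libraries (87.4%).

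CCNA2, the cyclin A gene of dividing somatic cells (GRCh37, chr4:122737599-122745038, minus strand), was among the most abundant members in controls and among the most reduced. In SK-N-BE(2)C the controls held 209.9, 206, 212, 218 and 219 CPM, the 24 h libraries 22.9, 22.8, 12.6, 11.8 and 12.3, and the 7-day libraries 40.7, 9.99, 6.73, 27.6 and 24.1. Treated and control libraries were far apart, and the 7-day libraries spread on both sides of the 24 h ones. The change was -3.71 ± 0.40 at 24 h and -3.34 ± 0.39 at 7 days (edgeR adjusted p = 3.3e-06 and 2.3e-06).

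In IMR-32 the CCNA2 controls held 134, 141, 139, 136 and 184 CPM, the 24 h libraries 13.9, 12.3, 13.8, 14.7 and 10.6, and the 5-day libraries 42.2, 39.6, 50.2, 45.9 and 65.3. The 3 groups were separate, with the 5-day libraries between the others. In SH-SY5Y the controls held 152, 127, 138, 132 and 154 CPM, the 24 h libraries 6.65, 5.76, 4.03, 8.97 and 7.49, and the 5-day libraries 3.98, 9.99, 19.2, 31.8 and 35.8. Of the 5-day libraries 1 was as low as the lowest 24 h library and 4 were above all of them. The fall at 24 h was -3.45 ± 0.15 in IMR-32 and -4.41 ± 0.45 for SH-SY5Y, and the rise after it was 1.84 ± 0.14 and 1.54 ± 0.45 (edgeR adjusted p = 1.8e-10, 2.5e-06, 2.5e-07 and 0.014).

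CCNA1, the cyclin A gene best known from the testis and from leukemia (GRCh37, chr13:37005657-37017007, plus strand), depended on the line. SK-N-BE(2)C held 0 to 5 counts a library, and the gene was not tested there. In SH-SY5Y the controls held 7.68, 5.36, 6.26, 5.49 and 4.76 CPM, the 24 h libraries 1.90, 2.27, 2.19, 2.96 and 1.94, and the 5-day libraries 1.12, 1.23, 1.79, 3.25 and 2.48. Both treated groups lay below all controls, with changes of -1.39 ± 0.23 and -1.65 ± 0.24 (edgeR adjusted p = 8.3e-05 and 8.0e-06).

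In IMR-32 the CCNA1 controls held 20.5, 19.99, 18.5, 21.5 and 3.85 CPM, the 24 h libraries 9.34, 9.21, 7.39, 7.54 and 1.13, and the 5-day libraries 10.6, 11.7, 8.14, 8.99 and 6.72. Replicate 5 was the lowest of its group each time, and the treated groups overlapped the controls only through it. With it the changes of -1.23 ± 0.45 and -0.88 ± 0.45 did not pass (edgeR adjusted p = 0.0504 and 0.12, the first 0.013 in DESeq2). Without replicate 5 in any group they were -1.21 and -1.04 (adjusted p = 8.9e-07 and 2.6e-06), and in a paired fit with the replicate number as a replicate block they were -1.24 and -0.72 (adjusted p = 0.0023 and 0.033).

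**Figure D2:**
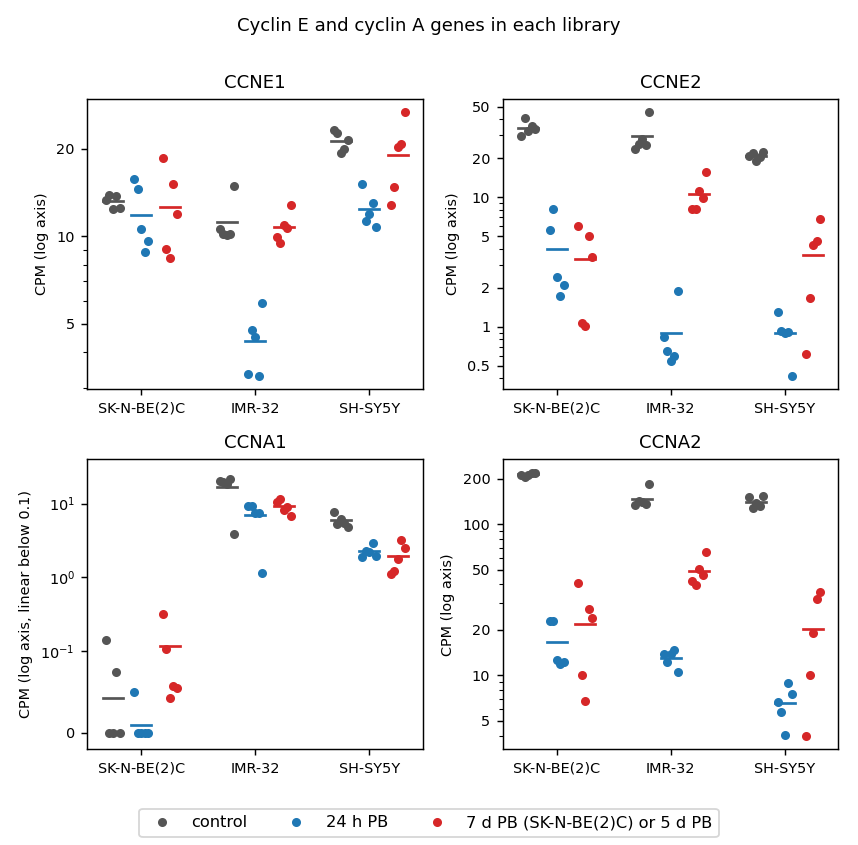
CPM of the 4 cyclin genes on a log axis, with 1 point for each library and a bar at the mean of 5 libraries, in controls and at 24 h and at the longer time with PB in each line. CCNE2 and CCNA2 fell in every line, CCNE1 was near its control level at the longer time, and IMR-32 control replicate 5 stood apart in all 4 genes.

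CDK2, the kinase itself (GRCh37, chr12:56360565-56366573, plus strand), was lower at both times in all lines. The SK-N-BE(2)C controls held 72.5, 67.7, 68.1, 67.2 and 74.6 CPM, the 24 h libraries 18, 15.5, 12.1, 12 and 11.2, and the 7-day libraries 18.4, 5.83, 2.82, 10.4 and 9.36. The treated libraries lay below every control, and 4 of the 5 7-day libraries lay below every 24 h library. The change was -2.37 ± 0.32 at 24 h and -2.97 ± 0.33 at 7 days (edgeR adjusted p = 2.9e-05 and 1.5e-06). The step between the treated times, -0.59 ± 0.33, did not pass (edgeR adjusted p = 0.14), though it did so without 7-day replicate 1, at -1.0, and in the fit of all 45 libraries, at -0.60 (adjusted p = 0.0057 and 0.026).

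In IMR-32 the CDK2 controls held 83.9, 94.1, 95.6, 86.9 and 140.4 CPM, the 24 h libraries 21.8, 23.4, 22.7, 19.97 and 25.3, and the 5-day libraries 33.9, 31.0, 35.1, 31.1 and 43.1. In SH-SY5Y the controls held 104, 95.5, 104, 94.4 and 106 CPM, the 24 h libraries 31.1, 31.0, 35.9, 35.2 and 30.6, and the 5-day libraries 37.8, 35.6, 44.9, 43.2 and 43.1. In both lines all treated libraries lay below all controls, and the 5-day values were as a rule the higher of the treated ones. The changes at 24 h were -2.10 ± 0.15 and -1.63 ± 0.08 (edgeR adjusted p = 1.6e-08 and 4.2e-11). The later rise of 0.57 ± 0.14 passed in IMR-32, although without 5-day replicate 5 it was 0.48, and that of 0.26 ± 0.08 in SH-SY5Y was under the fold change limit (edgeR adjusted p = 0.0063 and 0.0092). Of the 3887 exonic bases annotated for CDK2, 654 are overlapped by exons on the other strand, PMEL among their genes.

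CDC25A, the phosphatase best known for activating CDK2 at the start of S phase (GRCh37, chr3:48198636-48229907, minus strand), went on falling in SK-N-BE(2)C and rose part of the way in IMR-32. The SK-N-BE(2)C controls held 93.5, 95.7, 98, 96.6 and 92.5 CPM, the 24 h libraries 36.4, 36.8, 25, 25.7 and 26.0, and the 7-day libraries 28.0, 13.3, 13.5, 26.3 and 24.0. All treated libraries were below the controls and the treated groups overlapped. The changes from control were -1.69 ± 0.20 and -2.23 ± 0.20, and the step of -0.53 ± 0.20 from 24 h to 7 days also passed (edgeR adjusted p = 5.6e-06, 1.2e-07 and 0.032). That step lost its call with 24 h replicate 1 or 2 or 7-day replicate 2 or 3 left out (adjusted p = 0.076 to 0.084), and it was -0.29 without replicates 1 and 2 (adjusted p = 0.25).

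In IMR-32 the CDC25A controls held 88.0, 87.5, 91.4, 88.9 and 146 CPM, the 24 h libraries 10.5, 11, 12.3, 10.5 and 19.1, and the 5-day libraries 49.6, 38.2, 48.1, 43.5 and 56.4. The groups were separate, with 5 days between the others. In SH-SY5Y the controls held 108, 89.0, 89.2, 111 and 105 CPM, the 24 h libraries 20.4, 18.2, 16.3, 19.0 and 16.1, and the 5-day libraries 13.4, 18.4, 24.7, 27.9 and 34.7, which overlapped the 24 h range. The changes at 24 h were -2.95 ± 0.20 and -2.49 ± 0.19 (edgeR adjusted p = 1.4e-08 and 6.6e-08). From 24 h to 5 days CDC25A rose by 1.85 ± 0.19 in IMR-32, where it was still below control by -1.10 ± 0.18 at 5 days, and the 0.35 ± 0.19 in SH-SY5Y did not pass (edgeR adjusted p = 5.3e-06 and 0.16), although it was 0.53 without 5-day replicate 1 (adjusted p = 0.0095).

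CDC25B, whose protein acts mainly at entry into mitosis (GRCh37, chr20:3767419-3786768, plus strand), changed least of the phosphatases in each line at both times. At 24 h its change was smallest in SK-N-BE(2)C, where the controls held 314, 298, 299.96, 305 and 308 CPM, the 24 h libraries 246, 235, 233, 234 and 231, and the 7-day libraries 215, 189, 222, 240.4 and 215. Control and treated libraries did not overlap, yet the shift was small, -0.40 ± 0.05 at 24 h, which is under the fold change limit, and -0.54 ± 0.05 at 7 days (edgeR adjusted p = 1.7e-05 and 2.3e-07). Without 7-day replicate 2 the latter was -0.495, without replicates 1 and 2 in any group -0.489, and scaled by library size alone -0.494, each under the limit.

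In IMR-32 the CDC25B controls held 192, 201, 172, 191 and 171 CPM, the 24 h libraries 87.2, 78.3, 62.7, 88.9 and 91.8, and the 5-day libraries 141, 123, 133, 133 and 164. In SH-SY5Y the controls held 169, 144, 154, 149 and 150.1 CPM, the 24 h libraries 68.7, 63.5, 61.8, 74.9 and 67.1, and the 5-day libraries 77.6, 79.1, 89.4, 100.3 and 114. The 3 groups were separate in both lines, with the 5-day libraries in the middle. The changes at 24 h were -1.14 ± 0.10 and -1.20 ± 0.09 (edgeR adjusted p = 4.4e-07 and 1.5e-08). At 5 days the change from control was -0.43 ± 0.10 in IMR-32, under the fold change limit, and -0.80 ± 0.09 in SH-SY5Y (edgeR adjusted p = 0.0027 and 7.9e-07). Without replicate 5 in any group the IMR-32 change was -0.52 and passed (adjusted p = 2.3e-04).

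CDC25C, which activates the mitotic kinase CDK1 (GRCh37, chr5:137620958-137674044, minus strand), was the least abundant of the phosphatases. Its SK-N-BE(2)C controls held 10.4 to 11.4 CPM, its 24 h libraries 1.70 to 3.40 and its 7-day libraries 1.98 to 4.86. In IMR-32 the ranges were 11.9 to 17.4, 1.65 to 2.20 and 7.52 to 9.92, and in SH-SY5Y 14.7 to 18.4, 2.37 to 3.56 and 4.26 to 11. All treated libraries lay below all controls of their line, and the 5-day libraries lay above all 24 h libraries in IMR-32 and SH-SY5Y. The falls at 24 h were -2.14 ± 0.24, -2.84 ± 0.14 and -2.59 ± 0.20 (edgeR adjusted p = 1.9e-06, 4.8e-10 and 8.0e-09). The later rise was 2.13 ± 0.14 in IMR-32 and 1.38 ± 0.20 for SH-SY5Y, while the 0.31 ± 0.25 of SK-N-BE(2)C did not pass (edgeR adjusted p = 4.9e-08, 5.1e-05 and 0.30).

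SKP2, the substrate receptor that marks p27 for degradation (GRCh37, chr5:36152091-36196951, plus strand), fell by less at 24 h and went on falling in the MYCN-amplified lines. The SK-N-BE(2)C controls held 255, 259, 264, 242 and 262 CPM, the 24 h libraries 193, 195, 181, 174 and 167, and the 7-day libraries 162, 121, 97.1, 123 and 127. In IMR-32 the controls held 186, 209, 214, 180.3 and 283 CPM, the 24 h libraries 146, 144, 142, 134 and 143, and the 5-day libraries 74.9, 75.2, 89.8, 83.0 and 99.9. In both lines the 3 groups did not overlap and the longer time was the lowest. In SH-SY5Y the controls held 139.7, 146, 147, 136 and 156 CPM, the 24 h libraries 80.7, 88.9, 90.0, 92.3 and 83.8, and the 5-day libraries 84.8, 87.9, 109, 95.2 and 85.8, and the treated groups overlapped.

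The SKP2 changes at 24 h were -0.53 ± 0.10, -0.55 ± 0.12 and -0.74 ± 0.07 (edgeR adjusted p = 3.8e-04, 0.0020 and 1.1e-07), so the first and second lie close to the fold change limit. From 24 h to the longer time they were -0.54 ± 0.10, -0.80 ± 0.12 and 0.03 ± 0.07 (edgeR adjusted p = 2.3e-04, 1.2e-04 and 0.75). The IMR-32 change at 24 h was -0.42 without replicate 5, that of SK-N-BE(2)C was -0.499 without 24 h replicate 5, -0.483 without replicates 4 and 5 and -0.496 scaled by library size alone, and the SK-N-BE(2)C step was -0.45 without 7-day replicate 3, each under the fold change limit.

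FBXW7, the substrate receptor that marks cyclin E for degradation (GRCh37, chr4:153241696-153457244, minus strand), passed in no comparison. Its SK-N-BE(2)C controls held 31.2, 32.6, 36.9, 34.5 and 37 CPM, the 24 h libraries 38.2, 40.3, 42.8, 41.9 and 43.7, and its 7-day libraries 33.6, 33.4, 41.4, 39.6 and 35.9. The 24 h libraries lay just above all controls, by 0.23 ± 0.07 on the log2 scale (edgeR adjusted p = 0.012), under the fold change limit. The ranges of control, 24 h and 5-day libraries were 24.6 to 28.5, 23.2 to 31.4 and 26.7 to 28.5 CPM in IMR-32, and 30.1 to 34.8, 33.5 to 39.0 and 32.9 to 37.8 in SH-SY5Y, and they overlapped. No change of FBXW7 from control in those lines exceeded 0.15 ± 0.07, which was the change at 24 h in SH-SY5Y (edgeR adjusted p = 0.075).

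The ratio of SKP2 to FBXW7 within a library therefore came down. At 24 h the mean log2 ratio differed from control by -0.76, -0.64 and -0.89, and at the longer time by -1.13, -1.39 and -0.80. These 6 differences had the smallest p the design allows (exact permutation, adjusted p = 0.0102). As for the cyclin E genes, a test paired by replicate number could call none of them. From 24 h to the longer time the ratio differed by -0.75 in IMR-32 (exact permutation, adjusted p = 0.0102), by -0.37 for SK-N-BE(2)C and by 0.09 for SH-SY5Y (exact permutation, adjusted p = 0.076 and 0.52).

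**Figure D3:**
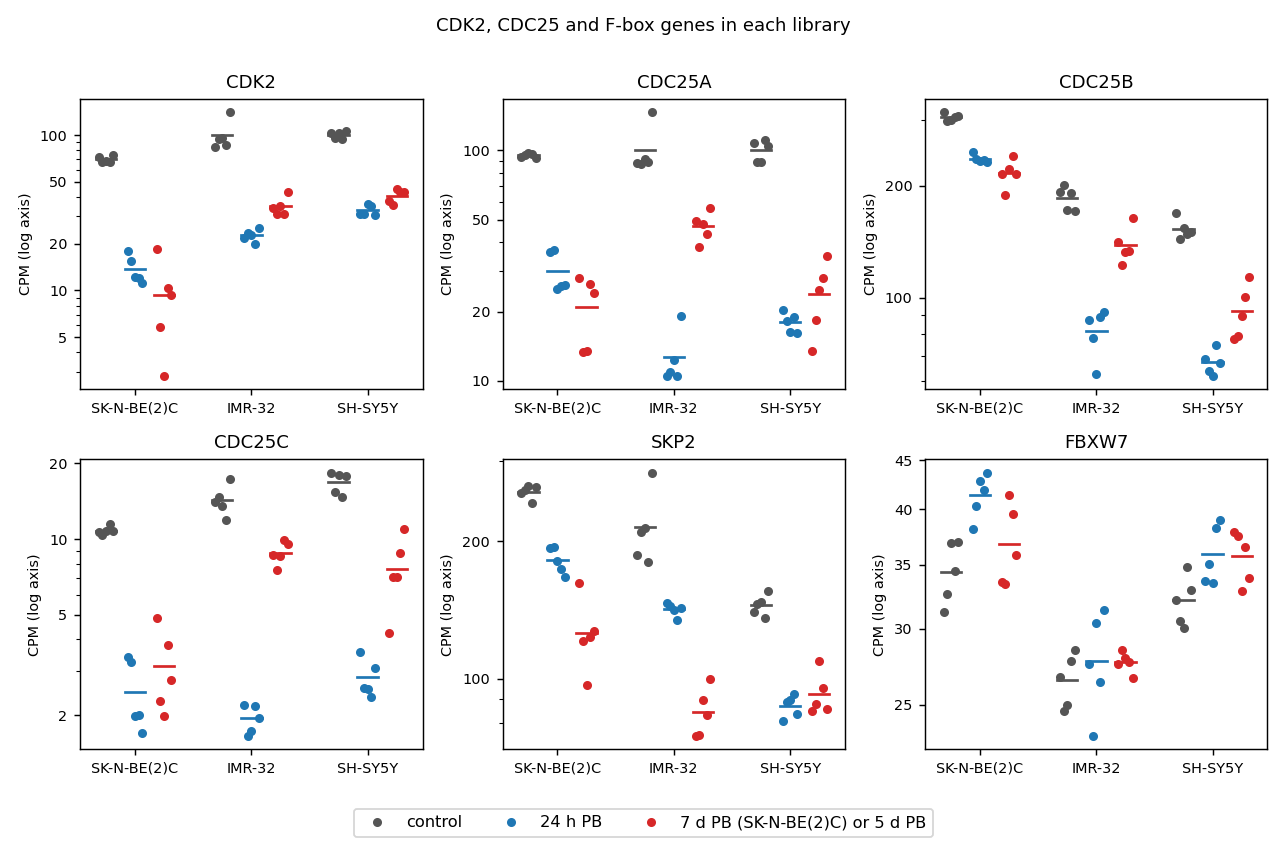
CPM of CDK2, the CDC25 genes, SKP2 and FBXW7 on a log axis, with 1 point for each library and a bar at the mean of 5 libraries. CDK2, CDC25A and CDC25C fell in every line, SKP2 was lowest at the longer time in both MYCN-amplified lines, and FBXW7 held close to its control level.

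Levels of different genes can be set side by side per kilobase. In controls CDC25B, CCNA2, SKP2 and CDK2 held the first 4 places in each line, from 31.3 ± 1.5 CPM per kb (CDK2 in SK-N-BE(2)C) to 97.7 ± 2.1 (CDC25B in the same line). At the 24 h time CDC25B and SKP2 held the first 2 places in each line, CDC25B at 75.6 ± 1.9, 26.2 ± 3.8 and 21.5 ± 1.6 CPM per kb and SKP2 at 49.0 ± 3.2, 38.2 ± 1.2 and 23.5 ± 1.3. The 4 cyclin genes together fell from 97.1 ± 2.2 to 13.6 ± 4.7 and 15.7 ± 8.1 CPM per kb in SK-N-BE(2)C. They fell from 80.0 ± 7.7 to 11.3 ± 1.8 and 32.5 ± 4.4 in IMR-32, while SH-SY5Y went from 73.3 ± 5.0 to 10.4 ± 1.3 and 19.6 ± 9.0. Neighbours such as CCNE1 at 6.36 ± 0.88 and FBXW7 at 6.37 ± 0.46 in SH-SY5Y at 24 h did not differ beyond their spread.

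**Figure D4:**
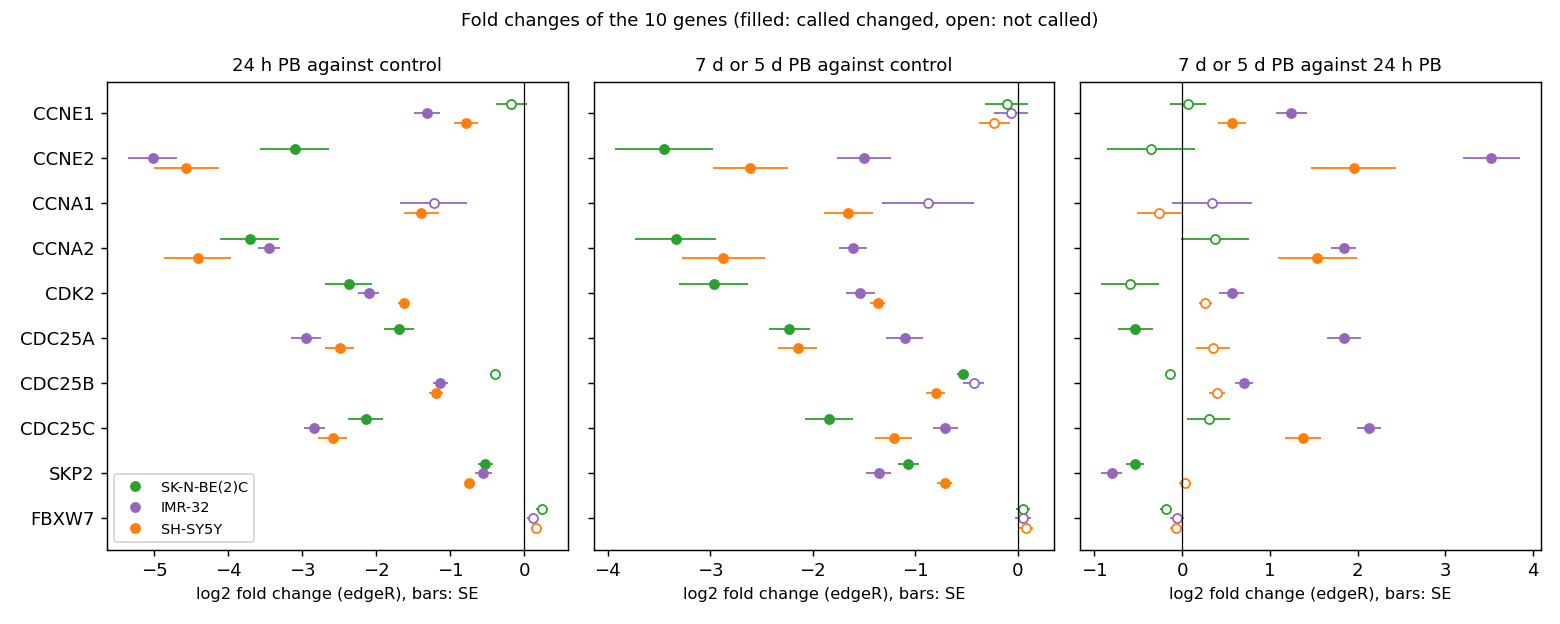
Log2 fold changes of the members from edgeR with their SE in each line, for 24 h of PB against control, the longer time against control, and the longer time against 24 h; filled points were called changed. Called points lay left of 0 against control. In the comparison of treated times 7 called IMR-32 genes and 4 called SH-SY5Y genes lay to the right. SKP2 in IMR-32 and SKP2 and CDC25A in SK-N-BE(2)C were called to the left.

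Whether a response differed between lines was tested directly in a fit of all 45 libraries. CCNA1 is left out of the counts for SK-N-BE(2)C, where it had 0 to 5 counts a library. At 24 h SK-N-BE(2)C differed from IMR-32 in 3 of the other 9 members (4.49% of all genes). CDC25B fell less in SK-N-BE(2)C by 0.74 ± 0.13, CCNE1 by 1.14 ± 0.27 and CDC25A by 1.26 ± 0.28 (edgeR adjusted p = 1.5e-04, 0.0061 and 0.0039). The difference in CCNE2 did not pass here but did so in DESeq2 (1.94, adjusted p = 0.033), in edgeR with RLE size factors (1.97, adjusted p = 0.046) or library size alone (1.99, adjusted p = 0.041), and without IMR-32 replicate 5 (2.13, adjusted p = 0.036) or SK-N-BE(2)C replicate 3 or 4. Against SH-SY5Y 1 member differed (2.04%), again CDC25B, by 0.77 ± 0.13 (edgeR adjusted p = 2.1e-04). In a paired fit with a replicate block CDK2 also differed, by -0.81 (adjusted p = 0.043). IMR-32 and SH-SY5Y differed in 0 of 10 members (3.07%) in edgeR and in DESeq2, with 1 member, CCNE1, at an unadjusted p under 0.05.

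At the longer time SK-N-BE(2)C was further below its control than IMR-32 in 5 members (23.9% of all genes differed), namely CDK2 by -1.40 ± 0.30, CCNE2 by -1.92 ± 0.55, CDC25C by -1.11 ± 0.27, CCNA2 by -1.70 ± 0.48 and CDC25A by -1.10 ± 0.28 (edgeR adjusted p = 3.9e-04 to 0.0060). Against SH-SY5Y 1 member differed (21.2%), CDK2 by -1.62 ± 0.30 (edgeR adjusted p = 6.6e-05). A fit with a replicate block added CDC25C, by -0.68 (edgeR adjusted p = 0.033). Replicate numbers were not taken to pair the 7-day SK-N-BE(2)C libraries with its controls, so that block is in doubt here. Here 7 days were set against 5. Between IMR-32 and SH-SY5Y, both at 5 days, 3 members differed (20.8%). SKP2 fell more in IMR-32 by -0.70 ± 0.14, while CDC25A and CCNA2 were less reduced there by 0.99 ± 0.28 and 1.21 ± 0.48 (edgeR adjusted p = 2.5e-04, 0.0062 and 0.0496). The call on CCNA2 was lost with 8 of the 10 replicate numbers left out in turn, in DESeq2 (adjusted p = 0.053) and with no filter on low counts (adjusted p = 0.095), and the paired fit with a replicate block added CCNA1, by 0.92 (adjusted p = 0.035).

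The genes around this set were counted from lists of partners, inhibitors and targets. Of 17 tested partners and neighbouring kinases 11 fell in each line at 24 h, against 10.6%, 10.5% and 11.0% of all genes tested, and 1 rose, which was CCND1, the cyclin D1 gene, by 0.71, 0.75 and 0.67 on the log2 scale. The genes with the largest mean falls were PKMYT1, the kinase that restrains CDK1, by a mean of 3.21 in size over the lines, then CDK1 at 2.98 and CCNB1, the cyclin B1 gene, at 2.37. At the longer time 11, 11 and 8 of the 17 were lower, against 22.3%, 15.5% and 17.3% of all genes, with CDK1, CCNB2 and CCNB1 lower in all lines, and CCND1 was the 1 that was higher. PKMYT1 rose between the treated times in all lines, by 0.70, 3.0 and 1.25.

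Among 12 tested genes of the ubiquitin machinery 5, 4 and 4 fell at 24 h, against the same 10.6%, 10.5% and 11.0% of all genes, and none rose. CDC20 and FBXO5, an activator and an inhibitor of the anaphase-promoting complex, and USP37, a deubiquitinase of cyclin A, fell in all 3 lines at 24 h. At the longer time 6, 3 and 5 of the 12 were lower, against 22.3%, 15.5% and 17.3% of all genes, and 0 were higher. FBXO5 and CDC20 were among those lower in all 3 lines (a mean of 1.88 in size each). The targets of CDK2 at S-phase entry are listed for their proteins, but RNA was measured, so their counts do not measure CDK2 activity. Of 12 such targets 9, 10 and 8 fell at 24 h, against 10.6%, 10.5% and 11.0% of all genes. MYBL2, CDT1 and FOXM1 were the largest on average (3.71, 3.29 and 3.25 in size). At the longer time 8, 8 and 9 were lower, against 22.3%, 15.5% and 17.3% of all genes. MYBL2, TICRR and FOXM1 were then the largest on average among those lower in all 3 lines (2.24, 1.96 and 1.91 in size). The 1 target above control then was RBL2, the RB-related p130 gene, by 0.51 in SH-SY5Y, which is named here after its value was seen. CDT1 and FOXM1, a licensing factor for replication and a factor for mitotic genes, rose again between the treated times in all 3 lines. Of the 12 targets 3, 8 and 5 rose in that step, against 17.5%, 10.8% and 10.5% of all genes, 1, 1 and 0 fell, and the other 8, 3 and 7 were not called.

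The calls on the CDK inhibitors are given for each line, and their difference between lines was not tested. CDKN1A, which encodes p21, changed by -1.68, -0.42 and 0.69 at 24 h (edgeR adjusted p = 0.017, 0.33 and 0.018). CDKN1B, which encodes the SKP2 target p27, changed by -0.62, -0.30 and -0.72 (edgeR adjusted p = 1.2e-05, 0.010 and 3.9e-09), so it fell in SK-N-BE(2)C and SH-SY5Y. In all, 2 of 2, 0 of 3 and 1 of 3 inhibitors fell at 24 h, against 10.6%, 10.5% and 11.0% of all genes. CDKN1C was tested in IMR-32 and SH-SY5Y and was not called at 24 h. At the longer time none of them was called against control in SK-N-BE(2)C or IMR-32. In SH-SY5Y all 3 were below control at 5 days, against 17.3% of all genes, CDKN1A by -0.94, CDKN1B by -0.84 and CDKN1C by -0.62 (edgeR adjusted p = 0.0018, 6.1e-10 and 0.013), so CDKN1A stood above control at 24 h and below it at 5 days.

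Among the 12555 other genes tested in all lines, those whose log2 CPM followed a member most closely over the 15 libraries of a line were found by the mean Pearson correlation of the 3 lines. Libraries of a line share groups and depth, so these values are descriptions. CCNE2 was closest to MCM4, DTL and CDC6 (mean r = 0.987, 0.987 and 0.986), and CDK2 to KPNA2, GMNN and AURKA (0.987, 0.986 and 0.981). CDC25B was closest to KNSTRN, PASK and ZNF367 (0.969, 0.966 and 0.966). The nearest genes to CCNE1 were less close, VRK1, CCNE2 and E2F2 (0.829, 0.821 and 0.818), with r for VRK1 of 0.645, 0.918 and 0.925 within the lines.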

How the data were processed

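RNA from 45 libraries (3 lines, 3 groups, 5 replicates) was polyA-selected, made into directional libraries and sequenced as read pairs. Per the submitters' processing notes the authors used Trim Galore 0.6.4, STAR 2.6.1d and hg19, with a minimum phred score of 20; the sources used here state neither strand nor annotation. The counts deposited are whole reads per gene and were used as they are. The deposited CPM tables and the log2 fold changes and adjusted p-values of the authors' DESeq2 1.32.0 comparisons were not used. CPM was recomputed from the counts, with no further scaling.

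Each line's counts were fitted by edgeR 4.0.16 under R 4.3.3 (normalised by TMM, filterByExpr with at least 10 counts and 15 in total, robust quasi-likelihood), 1 mean per group. This left 14055, 14293 and 14547 of 29159 genes and 9, 10 and 10 members (SK-N-BE(2)C first, SH-SY5Y last). p-values were adjusted by Benjamini-Hochberg over all genes tested, and genes were called at an adjusted p under 0.05 where the log2 fold change was over 0.5 in size. SEs were taken as the log2 change over √F. Differences between lines came from fitting all 45 libraries together. Ratios used a pseudocount of 0.5 CPM. The biological coefficient of variation was 13.8%, 19.8% and 11.2%. The fits were tested on simulated data. Counts were lowest for CCNA1 and, with PB, for CCNE2 and CDC25C, where counting error adds most.

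All 10 members are named. From each list the genes called alike in all 3 lines are named, up to 3 per direction by mean absolute change. The members and lists were chosen with earlier results of these data known. Gene positions follow GENCODE on GRCh37, the build of hg19; promoters are RefSeq on GRCh38.p14. After group means were removed, libraries of the same number correlated above 0.1 in every comparison of IMR-32 and SH-SY5Y. For SK-N-BE(2)C they did so from control to 24 h, but not in the 7-day comparisons (lowest 0.0482 and 0.0966). Where all passed 0.1 the numbers were taken to pair libraries, though those of different numbers were not compared. The main fits and the permutation test left this pairing out, and it enters only as an alternative. Alternatives were RLE factors, library size alone, no filter, no fold change limit, DESeq2 1.42.0, a replicate block, a fit of all libraries, other pseudocounts and libraries left out; leaving out SK-N-BE(2)C replicates 1 and 2 was chosen after seeing the data.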

Additional observations from a re-analysis of the deposited data

Results flagged for a closer look

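Of 90 sets of 5 libraries (a member in a group of a line), 12 had a library far from the other 4 by Dixon's test at the 95% level, which chance gives in about 1 of 20 sets. IMR-32 replicate 5 accounts for 9 of them. Among the controls of that line it held 14.9 CPM of CCNE1 (10.1 to 10.6 in the others), 45.1 of CCNE2 (23.7 to 28.0), 184 of CCNA2 (134 to 141), 140.4 of CDK2 (83.9 to 95.6), 146 of CDC25A (87.5 to 91.4) and 3.85 of CCNA1 (18.5 to 21.5), so it was the highest for the first 5 genes and the lowest for CCNA1. At 24 h it held 1.88 CPM of CCNE2 (0.545 to 0.831), 19.1 of CDC25A (10.5 to 12.3) and 1.13 of CCNA1 (7.39 to 9.34). The others were SK-N-BE(2)C replicate 1, with 246 CPM of CDC25B at 24 h (231 to 235) and 0.0499 and 0.316 CPM of CCNA1 at 24 h and 7 days, which are 1 and 5 counts.

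In 13 cases the response of a member differed between lines, as differences of log2 fold changes. At 24 h, SK-N-BE(2)C minus IMR-32, these were 0.74 for CDC25B, 1.14 for CCNE1 and 1.26 for CDC25A, and SK-N-BE(2)C minus SH-SY5Y 0.77 for CDC25B. At the longer time they were -1.40 for CDK2, -1.92 for CCNE2, -1.11 for CDC25C, -1.70 for CCNA2 and -1.10 for CDC25A in SK-N-BE(2)C minus IMR-32, and -1.62 for CDK2 in SK-N-BE(2)C minus SH-SY5Y, where 7 days stand against 5. IMR-32 minus SH-SY5Y, both at 5 days, gave -0.70 for SKP2, 1.21 for CCNA2 and 0.99 for CDC25A.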

How the results depend on the processing

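The count of members called between 24 h and 7 days in SK-N-BE(2)C (2) became 4 with no fold change limit, 1 with no filter and 1 without replicates 1 and 2, and ran from 0 to 3 with each library left out. The count for 24 h in SK-N-BE(2)C against SH-SY5Y (1) was 2 with a replicate block and 1 to 2 with a replicate left out. For the longer time in the same pair (1) it was 2 with no fold change limit, 2 in DESeq2, 3 with a replicate block and 1 to 2 with a replicate left out; the member gained in DESeq2 and 1 of those gained with the block is CCNA1, at 0 to 5 counts a library in SK-N-BE(2)C, so these say nothing of it. With no fold change limit 1 member, FBXW7, rose at 24 h in SK-N-BE(2)C. The other totals of called members stayed within 1.5 times under every alternative run, and no called member value changed sign; 36 uncalled ones did. A replicate block changed no other call than those given here or above.

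Paired by replicate number (a replicate block), 5 pairs allow no sign-flip p under 0.0625, so the called ratio differences, whose sizes are 2.98, 3.32, 3.18, 1.40, -1.78, 3.21 and 2.47 for CCNE1 to CCNE2 and -0.76, -1.13, -0.64, -1.39, -0.75, -0.89 and -0.80 for SKP2 to FBXW7, could not pass (exact, adjusted p = 0.075). With libraries left out, the 5-day against 24 h ratio of CCNE1 to CCNE2 in SH-SY5Y ran from -1.01 to -0.60 and the 7-day against 24 h ratio of SKP2 to FBXW7 in SK-N-BE(2)C from -0.50 to -0.24, each passing without replicate 1 of the longer time. Depth limits CCNA1 in SK-N-BE(2)C, at 0 to 5 counts a library.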
